A study of Mus musculus with 12 samples.

Results

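The proteasome is the barrel-shaped protease that degrades proteins tagged with ubiquitin. Its core particle is built from rings of alpha and beta subunits, and the beta subunits carry the cutting sites. The regulatory particle caps the core: its base holds a ring of ATPases that unfold substrates, and its lid removes ubiquitin. In macrophages, cytokines replace the catalytic beta subunits with immunoproteasome subunits, and the peptides produced feed antigen presentation. The genes described here are the 45 listed genes whose symbols begin with *Psma*, *Psmb*, *Psmc*, *Psmd*, *Psme*, *Psmf* or *Psmg* followed by a number, out of 12850 listed genes. The pattern matched 48 genes, and the 3 immunoproteasome subunits *Psmb8*, *Psmb9* and *Psmb10* were set apart. The rule uses symbols and no expression value, but it was set with earlier results of these data known.

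By textbook function, 15 of the 45 encode the core particle (8 alpha and 7 beta subunits) and 17 the regulatory particle (6 ATPases, 3 other base subunits and 8 lid subunits). The other 13 are 4 activators (*Psme1* to *Psme4*), 4 chaperones of core assembly (*Psmg1* to *Psmg4*), 3 chaperones of regulatory particle assembly (*Psmd5*, *Psmd9* and *Psmd10*), the inhibitor gene *Psmf1* and *Psmc3ip*. *Psmc3ip* encodes a recombination factor that binds an ATPase subunit and is not a proteasome subunit. *Psma8*, the alpha subunit of the testis, had 3 to 34 reads per library and *Psmc3ip* 15 to 29. The other 43 genes had at least 52 reads in each library.

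RNA came from thioglycollate-elicited peritoneal exudate cells (PECs) of C57BL/6 mice, either WT or homozygous for the S513A knock-in allele of *Zc3h12a* (S513A), the gene of the RNA-degrading enzyme Regnase-1. The allele was made by genome editing in fertilized eggs and is therefore carried by every cell of the animal. PECs of both genotypes were elicited for 3.5 days and cultured, then left unstimulated (0 hr) or stimulated for 4 or 8 hr with 100 ng/ml LPS, a component of bacterial walls. Each of the 6 groups had 2 libraries. No unstimulated library was made beside the 4 and 8 hr libraries, and whether all cells were cultured equally long is not given. Changes with LPS therefore cannot be told apart from changes with time in culture. The labels give neither the age of the mice nor whether the libraries of a group came from separate animals, so the p values measure the spread between these libraries, which may be technical.

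The libraries held 9525979 to 12439960 reads on the listed genes. Values are log2 CPM (CPM is the reads on a gene scaled to a common library total), and differences were tested with limma in a fit of all 12 libraries over 11885 genes, with an adjusted p of 0.05 as the threshold. Macrophage markers summed to 16066 to 26293 CPM per library with 6 of 6 genes listed, whereas the listed markers of neutrophils summed to 20.2 to 106 CPM (1 of 6 listed), those of B cells to 3.44 to 8.87 CPM (4 of 5) and those of T cells to 0.237 to 1.62 CPM (1 of 5). The eosinophil markers (2 of 5 listed) went from 15.3 to 18.5 CPM at 0 hr to 3.62 to 4.58 CPM at 8 hr. That fall was of *Siglecf* alone, from 15.2 to 18.3 CPM to 2.98 to 4.32 CPM. The other marker, *Ccr3*, was at 0.12 to 0.17 CPM at 0 hr and 0.24 to 0.65 CPM at 8 hr. Mast cell markers (3 of 5) stayed between 1.45 and 3.20 CPM, mesothelial markers (4 of 5) between 0.541 and 3.41 CPM, and erythroid markers (0 of 5) were not analysed here. Libraries also differed in how genes with short transcripts ranked against genes with long ones, also between replicates of a group. The median deviation of 651 genes under 1 kb minus that of 3569 genes over 4 kb was lowest in the first S513A library at 8 hr (-0.87) and the second WT library at 4 hr (-0.61), and highest in the second S513A library at 4 hr (0.60). The S513A allele changes 1 codon, so gene-level values cannot check the genotype labels. The 6 inflammatory genes used to check the treatment rose with LPS, by 2.84 (*Nfkbia*) to 8.65 (*Il6*) at 4 hr on the log2 scale. In bulk RNA, fewer cells of a type and less RNA per cell cannot be told apart. Whether the lower *Siglecf* value reflects eosinophils, and its part in the values below, was not tested.

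In unstimulated PECs, core particle genes were the most abundant class per kilobase of transcript. On the scale of log2 CPM per kilobase, the median gene stood at 6.57 in the core particle, 5.78 in the regulatory particle and 3.65 among the other members. *Psmb6*, a catalytic beta subunit, was highest at 8.57 ± 0.19 (SD over the 4 libraries at 0 hr), followed by the lid subunit gene *Psmd8* at 7.99 ± 0.19 and the catalytic *Psmb5* at 7.53 ± 0.22. The lowest were *Psmf1* at 2.61 ± 0.16, *Psmc3ip* at 0.71 ± 0.17 and *Psma8* at -0.64 ± 1.08. Along the order of the 45 levels, 35 of the 44 neighbouring pairs had libraries that overlapped, so most ranks are not separated beyond their spread. *Psmb6* over *Psmd8* and *Psmd8* over *Psmb5* were among the 9 pairs that did not overlap. Per kilobase of coding sequence *Psmb6* and *Psmd8* stayed in places 1 and 2, and *Psmc3ip* and *Psma8* in places 44 and 45. Other places depended on the length used. *Psmb5* went from place 3 to 5, *Psma2* from 28 to 8, *Psma3* from 29 to 11 and *Psmf1* from 43 to 39. The class medians kept their order, at 7.41 in the core particle, 6.09 in the regulatory particle and 4.92 among the other members.

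Proteasome promoters are known in general to carry antioxidant response elements, which NRF1 and NRF2 bind. Windows from 250 bases before to 50 after the start site were available from RefSeq for 37 of the 45 members, without *Psma8*, *Psmb1*, *Psmb2*, *Psmb7*, *Psmc3*, *Psmd3*, *Psmd7* and *Psmg2*. In the 250 upstream bases, on both strands, the element TGACNNNGC was present in 5 of 37 members (13.5%; *Psmb5*, *Psmb6*, *Psmc6*, *Psmd9* and *Psmd12*), against 11.5% of 27025 genes with a window. The CCAAT box was present in 13 of 37 (35.1%), against 37.5% of all genes, and in 6 of 11 core particle genes. Neither share of the members stood far from that of all genes. The sequences below end at the base before the start site (RefSeq, GRCm38.p6, 5′ to 3′ on the strand of the gene, 200 bases each). Capitals mark the element in *Psmb5*, which begins 47 bases before the start, and in *Psmd10* 2 CCAAT boxes on the opposite strand. *Psmd11*, *Psma5* and *Psmd10* are shown because they had large rises with LPS, *Psmd8* because it fell and *Psmb5* because its window holds the element.
Psmd11, chr11:80428415-80428614, + strand: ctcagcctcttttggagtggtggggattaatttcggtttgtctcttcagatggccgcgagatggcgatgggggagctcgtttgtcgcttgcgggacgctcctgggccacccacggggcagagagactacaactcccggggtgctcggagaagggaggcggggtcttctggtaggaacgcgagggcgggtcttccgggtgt
Psma5, chr3:108256726-108256925, + strand: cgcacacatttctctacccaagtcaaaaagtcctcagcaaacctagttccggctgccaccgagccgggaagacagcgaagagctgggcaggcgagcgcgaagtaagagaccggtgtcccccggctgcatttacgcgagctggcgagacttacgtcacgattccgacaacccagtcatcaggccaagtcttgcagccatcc
Psmd10, chrX:140956712-140956911, - strand: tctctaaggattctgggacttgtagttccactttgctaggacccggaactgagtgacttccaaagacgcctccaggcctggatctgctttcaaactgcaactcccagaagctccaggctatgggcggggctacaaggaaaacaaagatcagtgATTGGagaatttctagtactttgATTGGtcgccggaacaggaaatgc
Psmb5, chr14:54617996-54618195, - strand: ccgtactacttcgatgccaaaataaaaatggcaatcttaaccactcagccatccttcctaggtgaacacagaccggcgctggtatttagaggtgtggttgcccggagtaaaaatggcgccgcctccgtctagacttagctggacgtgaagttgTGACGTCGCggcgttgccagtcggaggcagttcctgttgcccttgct
Psmd8, chr7:29180674-29180873, - strand: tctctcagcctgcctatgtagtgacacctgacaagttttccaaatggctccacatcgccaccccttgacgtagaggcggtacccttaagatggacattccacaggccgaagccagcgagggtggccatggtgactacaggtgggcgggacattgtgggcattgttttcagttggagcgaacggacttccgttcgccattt

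After 4 hr of LPS, constitutive proteasome genes were mostly higher than at 0 hr. Of the 45 genes, 31 rose and 1 fell (limma, adjusted p under 0.05), where 29.1% of all genes tested rose and 26.7% fell. In the regulatory particle 15 of 17 genes rose, with a median log2 fold change of 0.60. In the core particle 10 of 15 rose, with a median of 0.55, and among the other members 6 of 13 rose and 1 fell, with a median of 0.31. The median of all genes tested was 0.02. The libraries at 4 hr lay above those at 0 hr without overlap for 12 regulatory, 4 core and 6 other genes, as they did for 25.7% of all genes. The core and the regulatory particle thus had similar medians. The core count of separated genes, 4 of 15, was near the share of all genes. The replicate SD of the library median was 0.30 in the core and 0.17 in the regulatory particle. The part of that spread in the counts of separated genes was not tested. With quantile normalization 18 members rose, where 25.1% of all genes rose and 30% fell, and the medians were 0.20 in the core and 0.34 in the regulatory particle. In that setting 4 of 15 core and 9 of 17 regulatory genes rose. *Psma2*, *Psma4*, *Psma7*, *Psmb2*, *Psmb4*, *Psmb7*, *Psmc1*, *Psmc3*, *Psmd1*, *Psmd2*, *Psmd4*, *Psmd6*, *Psme4* and *Psmg2* lost their calls, and *Psmd8* was called lower. *Psmc3* and *Psmd2* changed sign, to log2 fold changes of -0.0003 and -0.14.

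**Figure D1:**
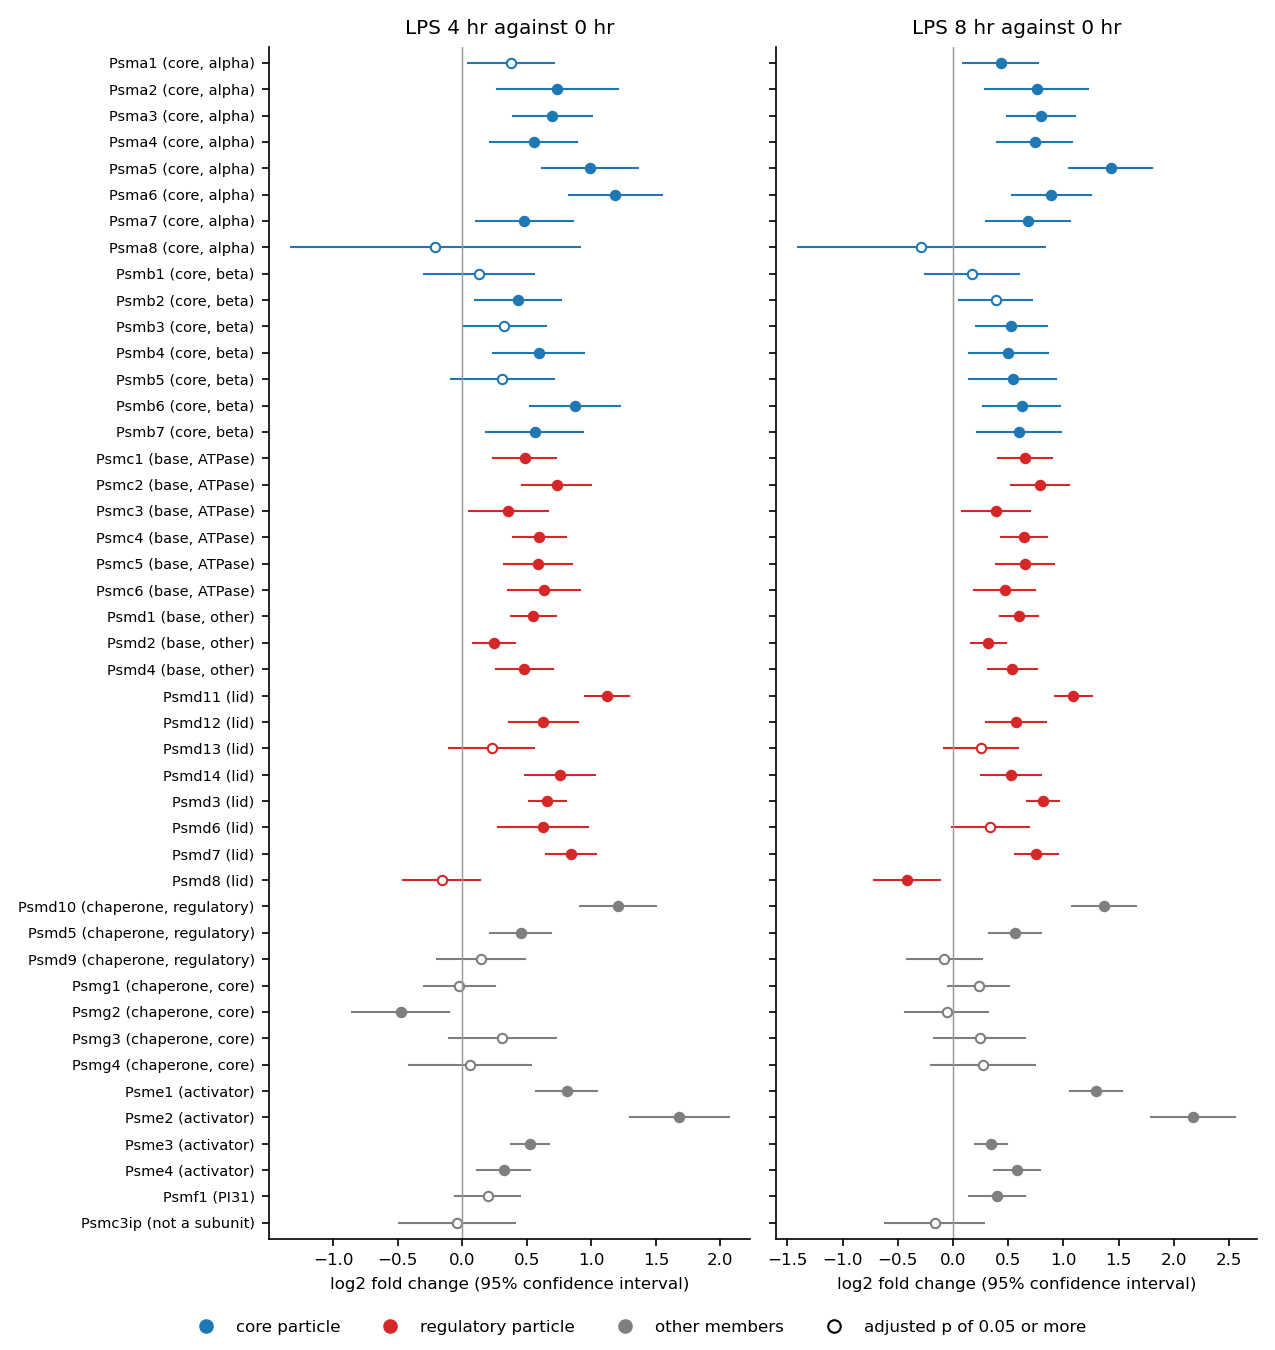
Log2 fold change of each of the 45 members after 4 hr (left) and 8 hr (right) of LPS against 0 hr, averaged over both genotypes, with 95% confidence intervals. Filled points passed an adjusted p of 0.05; regulatory particle genes (red) have narrower intervals than core particle genes (blue), and the median is 0.60 against 0.55 at 4 hr.

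Among regulatory particle genes, the lid subunit gene *Psmd11* (chromosome 11, 80428615 to 80473248) had the largest rise at 4 hr. Its log2 CPM was 5.77 and 5.59 in the WT and 5.78 and 5.73 in the S513A libraries at 0 hr, 6.86 and 6.76 in WT and 6.87 and 6.88 in S513A at 4 hr, and 6.74 and 6.83 in WT and 6.74 and 6.93 in S513A at 8 hr. The 4 unstimulated libraries lay together about a full log2 unit below the 8 stimulated ones. The log2 fold change was 1.12 (standard error, SE, 0.08, limma adjusted p = 4.2e-07) at 4 hr and 1.09 (SE 0.08, limma adjusted p = 6.73e-07) at 8 hr. *Psmd7*, the partner of the ubiquitin-removing subunit in the lid, was between 6.37 and 6.54 at 0 hr and between 7.03 and 7.44 at 4 hr, with a log2 fold change of 0.84 (SE 0.09). *Psmd14*, which encodes that ubiquitin-removing subunit, was between 6.28 and 6.52 at 0 hr and between 6.78 and 7.45 at 4 hr, with a log2 fold change of 0.76 (SE 0.12). For both genes the ranges at 0 and 4 hr did not overlap, and limma adjusted p values were 1.3e-05 and 0.000349. All 6 ATPase genes rose at both times, by 0.36 (*Psmc3*, which changed sign with quantile normalization) to 0.73 (*Psmc2*) at 4 hr and by 0.39 (*Psmc3*) to 0.79 (*Psmc2*) at 8 hr. *Psmc3* was close to the threshold (limma adjusted p = 0.0497 at 4 hr) and missed it at 8 hr without either library of WT or S513A at 0 hr, without either WT library at 8 hr or without the second S513A library at 8 hr. The base subunit genes *Psmd1*, *Psmd2* and *Psmd4* also rose, by 0.55, 0.25 and 0.48 at 4 hr, but none of the 3 passed with quantile normalization, and *Psmd2* also missed the threshold without the first S513A library at 0 hr.

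Among core particle genes, the alpha subunit genes *Psma6* and *Psma5* rose most. *Psma6* was at 6.87 and 7.03 in WT and 7.51 and 7.47 in S513A at 0 hr, at 8.55 and 7.94 in WT and 8.35 and 8.77 in S513A at 4 hr, and at 8.30 and 8.44 in WT and 7.55 and 8.15 in S513A at 8 hr. The libraries at 0 hr were the lowest, and the first S513A library at 8 hr exceeded the highest of them by little. The log2 fold change of *Psma6* was 1.19 (SE 0.16, limma adjusted p = 0.000101) at 4 hr and 0.89 (SE 0.16, limma adjusted p = 0.00103) at 8 hr. *Psma5* was at 5.88 and 6.08 in WT and 6.51 and 6.45 in S513A at 0 hr, at 7.33 and 6.73 in WT and 7.18 and 7.63 in S513A at 4 hr, and at 7.78 and 7.99 in WT and 7.12 and 7.74 in S513A at 8 hr. Its stimulated libraries lay above its unstimulated ones at both times. The log2 fold change of *Psma5* was 0.99 (SE 0.17, limma adjusted p = 0.000501) at 4 hr and 1.43 (SE 0.17, limma adjusted p = 4.38e-05) at 8 hr. *Psmb6* was between 8.02 and 8.45 at 0 hr and between 8.70 and 9.47 at 4 hr without overlap, with a log2 fold change of 0.88 (SE 0.16, limma adjusted p = 0.000719).

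The 3 catalytic beta subunit genes passed the threshold together at 8 hr but not at 4 hr. At 4 hr *Psmb6* and *Psmb7* rose, the latter by 0.56 (limma adjusted p = 0.0162), and *Psmb5* had a log2 fold change of 0.31 (adjusted p = 0.165, limma). At 8 hr *Psmb5*, *Psmb6* and *Psmb7* rose by 0.54, 0.62 and 0.60 (limma adjusted p values of 0.0299, 0.00781 and 0.0146). None of the 3 passed at 8 hr with quantile normalization. *Psmb5* also missed the threshold at 8 hr with a prior without a trend, without either library of WT or S513A at 0 hr, without either WT library at 8 hr and without the second S513A library at 8 hr. *Psmb7* missed it at 8 hr without the second WT library at 8 hr, and at 4 hr without the second S513A library at 4 hr. *Psmb1* passed at neither time, with log2 fold changes of 0.13 and 0.17, and *Psma8* was at -0.21 ± 0.51 (standard error) at 4 hr, on few reads. The immunoproteasome counterparts *Psmb8*, *Psmb9* and *Psmb10* rose by 1.06, 1.32 and 1.30 at 4 hr and by 1.78, 2.03 and 1.91 at 8 hr, and each rose again between 4 and 8 hr, by 0.72, 0.71 and 0.61.

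After 8 hr of LPS, 33 of the 45 genes were higher than at 0 hr and 1 was lower (limma, adjusted p under 0.05), where 24.5% of all genes tested were higher and 21.6% lower. The core particle had 12 of 15 genes higher and a median log2 fold change of 0.60, and the regulatory particle 14 of 17 higher, 1 lower and a median of 0.57. Among the other members 7 of 13 were higher, with a median of 0.34, and the median of all genes tested was -0.001. The libraries did not overlap for 12 regulatory genes above and 1 below, 4 core genes above and 7 other genes above, against 23% of all genes above and 20.7% below. The comparisons at 4 and 8 hr share the libraries at 0 hr. With quantile normalization 26 members were higher at 8 hr (20.8% of all genes), 7 of them in the core and 12 in the regulatory particle, and the medians were 0.36 and 0.37. *Psma1*, *Psmb4*, *Psmb5*, *Psmb6*, *Psmb7*, *Psmc3* and *Psmd2* lost their calls.

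*Psmd3*, a lid subunit gene, had the smallest standard error of the 45 members. Its log2 CPM was 6.01 and 5.98 in WT and 5.93 and 6.00 in S513A at 0 hr, 6.68 and 6.64 in WT and 6.64 and 6.58 in S513A at 4 hr, and 6.72 and 6.75 in WT and 6.89 and 6.81 in S513A at 8 hr. The 3 times formed bands that did not overlap. The log2 fold change was 0.66 (SE 0.06, limma adjusted p = 7.51e-06) at 4 hr and 0.81 (SE 0.06, limma adjusted p = 1.75e-06) at 8 hr. Between 4 and 8 hr the difference was 0.16, with an adjusted p of 0.103. The ATPase gene *Psmc2* was between 6.20 and 6.67 at 0 hr and between 6.95 and 7.52 at 8 hr, with a log2 fold change of 0.79 (SE 0.12, limma adjusted p = 0.000288). In the core, *Psma3* was between 6.65 and 7.08 at 0 hr and between 7.30 and 7.92 at 8 hr, with a log2 fold change of 0.79 (SE 0.14, limma adjusted p = 0.00076).

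*Psmd8* (chromosome 7, 29174187 to 29180673), the second most abundant member at 0 hr, was the exception in the regulatory particle. It was at 8.45 in both WT libraries and at 8.80 and 8.74 in the S513A libraries at 0 hr, at 8.51 and 8.06 in WT and 8.45 and 8.78 in S513A at 4 hr, and at 8.26 and 8.41 in WT and 7.79 and 8.31 in S513A at 8 hr. The libraries at 8 hr lay below those at 0 hr, in WT by a small margin, and the libraries at 4 hr overlapped both. The log2 fold change was -0.16 (limma adjusted p = 0.335) at 4 hr and -0.42 (SE 0.13, limma adjusted p = 0.0256) at 8 hr. The fall passed in S513A alone (-0.72, limma adjusted p = 0.0122) and not in WT alone (-0.12, limma adjusted p = 0.661), and the difference between the genotypes was -0.60 (limma adjusted p = 0.244). Leaving out the first S513A library at 8 hr gave -0.29 (limma adjusted p = 0.0898), and leaving out either WT or either S513A library at 0 hr, or the first WT library at 8 hr, gave adjusted p values of 0.058 to 0.0866. Of the other lid genes, *Psmd13* passed at neither time (0.23 and 0.25) and *Psmd6* rose by 0.62 at 4 hr but had an adjusted p of 0.106 at 8 hr.

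The 4 activator genes rose at both times, with median log2 fold changes of 0.67 and 0.94, where 29.1% and 24.5% of all genes rose. *Psme1* and *Psme2* encode the subunits of the interferon-induced activator ring that opens the core without ATP. *Psme2* was between 6.76 and 7.67 at 0 hr, between 8.40 and 9.37 at 4 hr and between 8.90 and 9.76 at 8 hr, so stimulated libraries lay above unstimulated ones. Its log2 fold change was 1.68 (SE 0.17, limma adjusted p = 1.06e-05) at 4 hr and 2.17 (SE 0.17, limma adjusted p = 1.77e-06) at 8 hr, the largest of the 45 at both times. A near-identical copy of *Psme2* exists in the mouse genome, and how reads shared by both copies were counted is not stated. *Psme1* was between 6.64 and 6.97 at 0 hr, between 7.28 and 7.86 at 4 hr and between 7.82 and 8.29 at 8 hr, with log2 fold changes of 0.81 and 1.29 (SE 0.11 each, limma adjusted p values of 7.09e-05 and 2.18e-06). *Psme3*, the gene of the nuclear activator, rose by 0.52 at 4 hr and 0.34 at 8 hr, and *Psme4*, the gene of a large activator, by 0.32 and 0.58. At 4 hr *Psme4* missed the threshold with quantile normalization and without the first S513A library at 4 hr. The inhibitor gene *Psmf1* was at 0.20 (limma adjusted p = 0.167) at 4 hr and rose by 0.40 (limma adjusted p = 0.0142) at 8 hr, though not without the second WT library at 0 or 8 hr or the first S513A library at 0 hr.

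Of the 3 chaperones of the regulatory particle 2 rose at both times (limma, adjusted p under 0.05). Of the 4 chaperones of the core none rose, where 29.1% and 24.5% of all genes rose at 4 and 8 hr. Among these 4, 1 and 0 had an unadjusted p under 0.05 in either direction, against 7196 and 6207 of 11885 genes. Counts over 3 and 4 genes cannot set these classes apart from all genes. *Psmd10*, the gene of the ATPase chaperone gankyrin, was between 5.53 and 6.00 at 0 hr, between 6.55 and 7.29 at 4 hr and between 6.74 and 7.38 at 8 hr, with no overlap with 0 hr. Its log2 fold change was 1.21 (SE 0.13, limma adjusted p = 1.83e-05) at 4 hr and 1.37 (SE 0.13, limma adjusted p = 9.25e-06) at 8 hr. *Psmd5* rose by 0.45 and 0.56, and *Psmd9* had log2 fold changes of 0.14 and -0.08 that did not pass. Among the core chaperones, *Psmg2* fell at 4 hr by 0.48 (SE 0.17, limma adjusted p = 0.0334), with libraries of 2.78 to 3.32 at 0 hr and 2.27 to 2.82 at 4 hr that overlapped. Without the second WT library at 4 hr that adjusted p was 0.11, and it also missed the threshold without either library of WT or S513A at 0 hr, or without the first S513A library at 4 hr. *Psmg1*, *Psmg3* and *Psmg4* had log2 fold changes of -0.02, 0.31 and 0.06 at 4 hr and of 0.23, 0.24 and 0.27 at 8 hr.

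**Figure D2:**
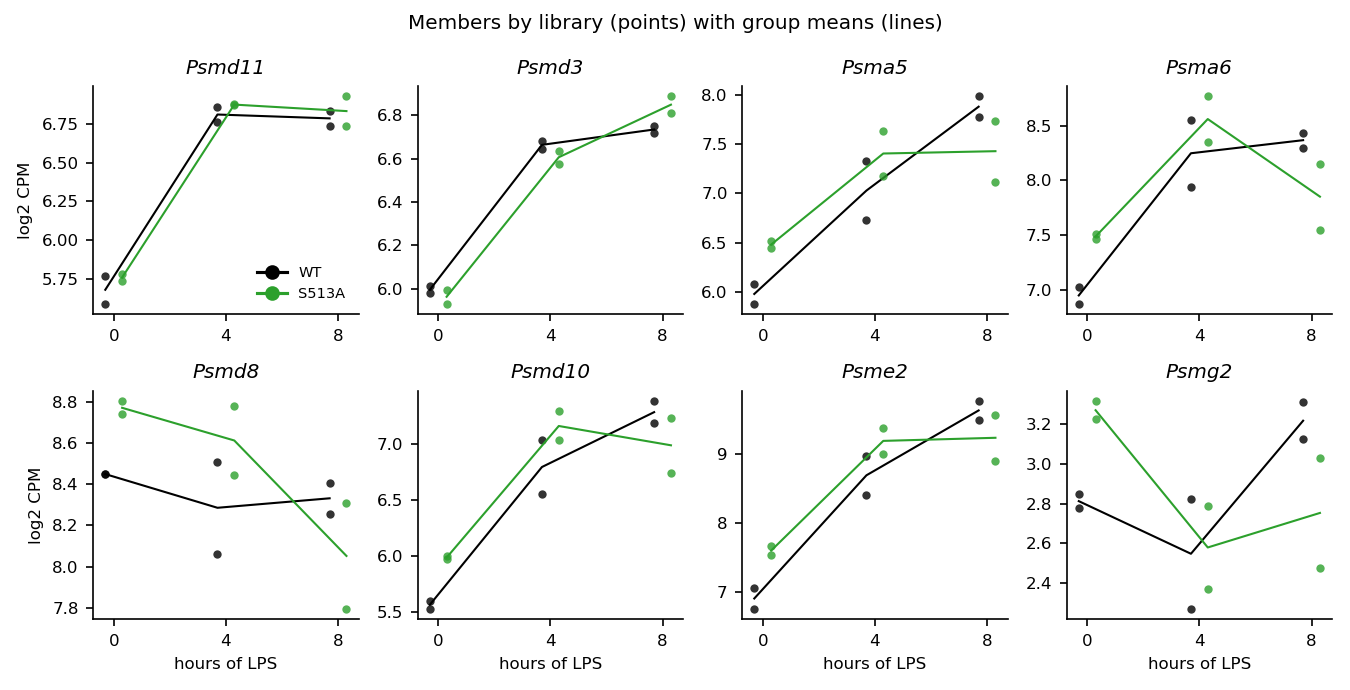
Log2 CPM of 8 members against hours of LPS in WT (black) and S513A (green), with a point for each library and a line through the group means. *Psmd11* and *Psmd3* have tight replicates and step up at 4 hr, *Psma5*, *Psma6*, *Psmd10* and *Psme2* rise with wider replicate gaps, *Psmd8* is lower at 8 hr (-0.42) and *Psmg2* is lower at 4 hr (-0.48).

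Between 4 and 8 hr most members did not move further. *Psme1* rose by 0.49 (SE 0.11, limma adjusted p = 0.00679), no member fell, and 7 of 45 had an unadjusted p under 0.05, where 12.8% of all genes tested passed in each direction and 36.8% had an unadjusted p under 0.05. The median log2 fold changes were 0.04 in the core, 0.03 in the regulatory particle and 0.20 among the other members. *Psme2* was at 0.49 (limma adjusted p = 0.06) and *Psma5* at 0.44 (limma adjusted p = 0.0833). When the dependence on transcript length and GC content was taken out of each library, 14 members rose and 3 fell between 4 and 8 hr, where 18.3% of all genes rose and 18.9% fell.

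Lists of genes that act on or beside the proteasome are set here against the 29.1% and 24.5% of all genes that rose at 4 and 8 hr. Of 9 listed genes for associated proteins and assembly factors (*Ecpas* and *Paaf1* were not analysed here), 5 rose at 4 hr and 3 at 8 hr, and 0 fell. *Adrm1*, the gene of the ubiquitin receptor of the base, rose by 0.71 and 0.57, and *Txnl1*, a thioredoxin that binds the lid, by 1.05 and 0.64. *Pomp*, the assembly factor of the core, had log2 fold changes of 0.28 and 0.46 (limma adjusted p values of 0.195 and 0.0511). In the NRF1 pathway, which restores proteasome gene expression when the proteasome is inhibited, 5 of 5 listed genes rose at 4 hr and 4 of 5 at 8 hr, a list that does not hold *Ddi2*. *Nfe2l1*, which encodes NRF1, rose by 1.21 (SE 0.09, limma adjusted p = 1.2e-06) at 4 hr and by 0.92 at 8 hr, and *Nfe2l2*, which encodes NRF2, by 0.68 and 0.38. *Ddi2*, the gene of the protease that activates NRF1, belongs to the same pathway but was listed with the ubiquitin shuttles, and it fell by 0.86 and 0.59, while *Vcp*, the ATPase that extracts ubiquitinated proteins, rose by 0.47 and 0.67. Of the 6 ubiquitin shuttle genes, with *Ddi2* among them, 3 rose and 1 fell at each time. Of 4 ubiquitin genes tested, 1 rose, *Uba1*, the ubiquitin-activating enzyme, by 0.44 and 0.61.

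Replicates disagreed more in the core than in the regulatory particle. Relative to the mean of the unstimulated libraries, the median core gene stood at -0.28 and -0.14 in WT and 0.20 and 0.22 in S513A at 0 hr, at 0.71 and 0.07 in WT and 0.51 and 0.90 in S513A at 4 hr, and at 0.71 and 0.87 in WT and 0.04 and 0.71 in S513A at 8 hr. The median regulatory gene stood at -0.10 and -0.08 in WT and 0.06 and 0.10 in S513A at 0 hr, at 0.71 and 0.25 in WT and 0.61 and 0.81 in S513A at 4 hr, and at 0.60 and 0.69 in WT and 0.34 and 0.63 in S513A at 8 hr. Thus the second WT library at 4 hr and the first S513A library at 8 hr were low for both particles and lower for the core. The replicate SD of the library median, pooled over the 6 groups, was 0.30 in the core, 0.17 in the regulatory particle and 0.05 among the other members. The other members are a mixed class, and the small SD of their median does not hold for single genes. Their median absolute replicate difference was 0.47 in WT at 4 hr and 0.39 in S513A at 8 hr. In WT at 4 hr and in S513A at 8 hr, 15 of 15 core genes differed in the same direction between the replicates. So did 17 of 17 and 16 of 17 regulatory genes. The median absolute difference was 0.61 and 0.62 in the core, against 0.45 and 0.28 in the regulatory particle. All 15 core genes also agreed in S513A at 4 hr. In WT at 0 and 8 hr and S513A at 0 hr, 12, 14 and 6 of them were higher in the second library. Core transcripts had a median length of 1165 bases and regulatory transcripts of 1636 bases.

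**Figure D3:**
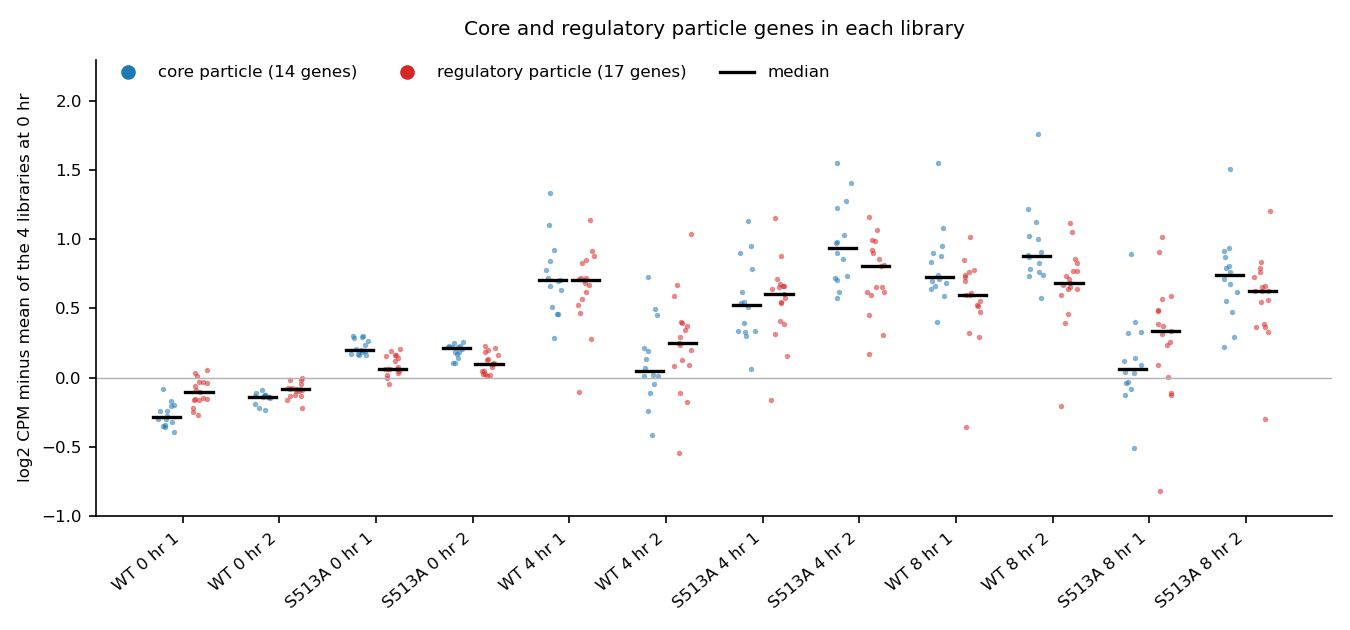
Log2 CPM of 14 core particle genes (blue, *Psma8* left out) and 17 regulatory particle genes (red) in each library, minus the mean of the 4 libraries at 0 hr, with black lines at the medians. The second WT library at 4 hr and the first S513A library at 8 hr lie below their replicates, by more in the core than in the regulatory particle.

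The same 2 libraries had the lowest values of short against long transcripts among the 12. The core median minus the regulatory median, in log2 CPM, was 0.34 in the first S513A library at 8 hr and 0.28 in the second WT library at 4 hr, and it reached 0.79 in the second WT library at 8 hr. The first S513A library at 8 hr also had the lowest macrophage marker sum, 16066 CPM. That sum was low through *Lyz2*, at 9006 CPM against 14881 CPM in its replicate, while *Csf1r* was at 1800 CPM against 1453 CPM and *Itgam*, *Cd68* and *Mertk* were not lower than in the replicate, and *Adgre1* was at 2611 CPM against 2725 CPM. The part of these differences between libraries in the core values was not tested. With both libraries left out, a choice made after the data were seen, 36 members were higher at 4 hr and 39 at 8 hr, where 31.6% and 26.7% of all genes were higher.

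**Figure D4:**
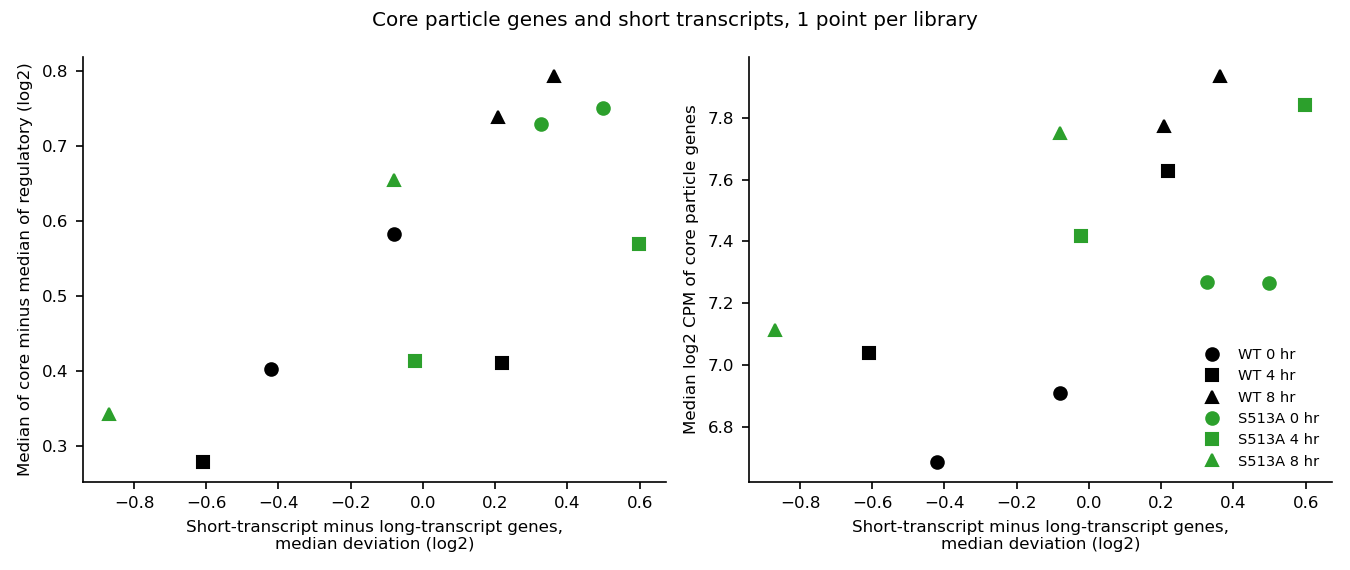
For each library, the median of core genes minus the median of regulatory genes (left) and the median log2 CPM of core genes (right) against the median deviation of genes under 1 kb minus that of genes over 4 kb. The first S513A library at 8 hr (-0.87) has a core median of 7.11 against 7.75 in its replicate (-0.08). Its core median is above those of both WT libraries at 0 hr (6.68 and 6.91), because the right panel also mixes the times of LPS.

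Between genotypes, no member passed the threshold. Averaged over the 3 times, 0 of 45 members were called in limma and 1 had an unadjusted p under 0.05, where 0.0673% of all genes tested were called and 6.71% had an unadjusted p under 0.05. The smallest p belonged to *Psma8*, with a log2 difference of -1.19 (S513A minus WT, limma adjusted p = 0.622) on 3 to 34 reads. *Psme2* was at 0.26 and *Psme1* at 0.16 (limma adjusted p = 0.795 for both). At single times 0 members were called, as were 0.0337%, 0.0168% and 0.0337% of all genes at 0, 4 and 8 hr, with 5, 2 and 4 members at an unadjusted p under 0.05 at 0, 4 and 8 hr, where 7.98%, 7.01% and 12.5% of all genes had one. At 0 hr 42 of 45 members were higher in S513A, with a median of 0.41 in the core, 0.19 in the regulatory particle and 0.01 over all genes. At 8 hr 5 of 45 were higher, with medians of -0.45 and -0.19. The value of short against long transcripts split the same libraries, at -0.42 and -0.08 in WT and 0.50 and 0.33 in S513A at 0 hr, and at 0.21 and 0.36 in WT and -0.87 and -0.08 in S513A at 8 hr. After removal of the length and GC trend the medians were 0.05 in both particles at 0 hr, and -0.05 in the core and 0.01 in the regulatory particle at 8 hr. That removal also takes out any change shared by genes of like length and GC content. The part of transcript length in the genotype medians was not tested. In a fit of the 4 libraries at 0 hr alone 20 members were called, as were 5.83% of all genes.

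In fitted values the response of most members at 8 hr was larger in WT than in S513A PECs, but no member passed the test of that difference. In WT 37 members rose and 0 fell at 8 hr (19.4% of all genes rose and 14.9% fell), with medians of 0.95 in the core and 0.74 in the regulatory particle. In S513A 11 rose and 1 fell (20.9% and 19% of all genes), with medians of 0.22 and 0.37. *Psma6* changed by 1.42 in WT and 0.36 in S513A, a difference of -1.05 (SE 0.32, limma adjusted p = 0.193), whereas *Psmd11* changed by 1.10 and 1.07, a difference of -0.03 with a 95% confidence interval from -0.37 to 0.31. Over the 45 members, 0 passed the test of the difference between genotypes at 8 hr in limma (smallest adjusted p = 0.193). An unadjusted p under 0.05 was found for 23 (12 core, 4 regulatory and 7 other), against 20.2% of all genes, of which 0% were called, and the median differences were -0.87, -0.40 and -0.62. After removal of the length and GC trend, which also takes out changes shared by genes of like length, the medians were -0.08, -0.02 and -0.06. The cause of that shift was not tested. Without the first S513A library at 8 hr they were -0.59, -0.23 and -0.34, and without the second 9 members passed, 7 of them in the core, as did 5.48% of all genes. At 4 hr the responses were alike in count, with 23 members higher in WT and 20 higher and 1 lower in S513A (22.6%, 23.1% and 20.2% of all genes), and 0 members passed or had an unadjusted p under 0.05 for the difference, against 0% and 1.21% of all genes.

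**Figure D5:**
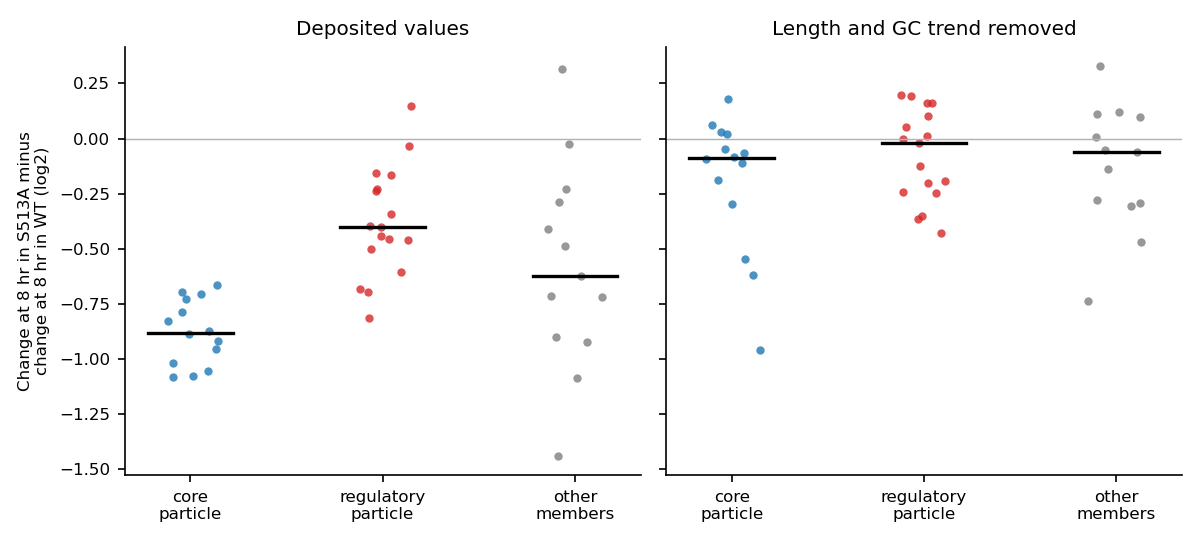
Change from 0 to 8 hr in S513A minus the same change in WT for each member (points; *Psma8* left out) with the median of each class (black lines), from the deposited values (left) and after the dependence on transcript length and GC content was taken out of each library (right). The core median moves from -0.88 on the left to near 0 on the right.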

How the data were processed

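The authors mapped paired-end reads on mm10 with HISAT2 and counted them with featureCounts (version 1.6.3, per the labels). The deposited values are log2 CPM, normalized by the authors, and the program that made them, the annotation, the strand setting of counting and the gene filter are not given in the sources used here. Each value equals the log2 of a read count plus 0.5 over an effective library size, and whole reads were recovered for 100% of values within 0.01 read. A floor of 3 reads lies between log2 CPM of -2.04 and -1.30, for counting error only.

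Genes with 1 CPM in at least 2 libraries were kept (11885), and all 45 members passed. The deposited log2 values were compared between groups in limma (version 3.58.1, R 4.3.3), with a mean per group, a prior following the mean level, two-sided tests and Benjamini-Hochberg adjustment over all genes. The core and regulatory particles were compared by counts and medians only, with no test. Genes without an official symbol numbered 112. The test was run on simulated data: of 200 genes changed 2-fold at 4 hr, 79.5% were recovered among 11885 genes, and of 200 changed 1.5-fold, 42%. Values per library are given for up to 3 rising and 3 falling members per class and contrast, called and with libraries that do not overlap. *Psme1* to *Psme4*, *Psmf1*, the members with the highest and lowest levels, the pathway lists and the 3 members with the smallest p between genotypes are also named, and other members were named after their values were seen. The members and lists were chosen with earlier results of these data known. Transcript lengths, positions and GC content are from GRCm38, and windows before start sites from RefSeq (GRCm38.p6). Alternatives were other filters, a further pseudocount, quantile normalization, scaling by median ratios, correlated libraries, a replicate block, a prior without a trend, voom weights, a fit of the libraries compared, removal of a length and GC trend (splines with 5 degrees of freedom) and each library left out. Plots were drawn with Python 3.11.15 and matplotlib 3.10.9.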

Additional observations from a re-analysis of the deposited data

How the results depend on the processing

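With 2 libraries per group, a log2 difference between 2 groups had a median standard error of 0.18 over all genes. The difference at 4 hr over both genotypes had 0.13. For that difference, 42% of simulated 1.5-fold changes were recovered. The simulation changed 200 of 11885 genes, where 3461 rose and 3174 fell in the data, and drew the noise of each gene separately. Its share is therefore not the recovery in these data, and smaller changes of single members may be missed. Of the counts and medians under the planned and added alternatives, 414 stayed close to the main result. A count was close when equal or within a ratio of 1.5, a median when it moved by less than the replicate SD of its particle. That SD was 0.30 in the core and 0.17 in the regulatory particle, so large moves of a core median count as close. The 414 also include counts between genotypes that were 0 and stayed 0. The number is therefore not a measure of stability. Of the rest, 13 counts were larger, 14 were smaller and 4 medians moved further. None of the members given by library reversed. With quantile normalization, *Psmc3* and *Psmd2* changed sign at 4 hr, to -0.0003 and -0.14. In the same setting, 18 members were higher at 4 hr (25.1% of all genes) and 26 at 8 hr (20.8%), with 7 in the core. Between 4 and 8 hr 5 were higher, as were 1546 of 11885 genes. The medians were 0.20 in the core at 4 hr and 0.34 and 0.37 in the regulatory particle at 4 and 8 hr. With the length and GC trend removed, the regulatory median at 4 hr was 0.41, and 14 members were higher and 3 lower at 8 hr than at 4 hr (18.3% and 18.9% of all genes). Without the second WT library at 4 hr and the first S513A library at 8 hr, 0 members were lower at 4 hr than at 0 hr, and 4 were higher and 1 lower at 8 hr than at 4 hr. In a fit of only the libraries compared, 20 members were called between genotypes at 0 hr, as were 5.83% of all genes. The cause of these shifts was not tested.

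Leaving out each library in turn gave 27 to 36 members higher and 0 to 1 lower at 4 hr, 27 to 35 higher and 0 to 1 lower at 8 hr, 1 to 6 higher and 0 to 3 lower at 8 hr against 4 hr, and 0 to 9 called for the difference between genotypes at 8 hr. The 6 came without the first WT library at 4 hr, the 3 without the second, and the 9 without the second S513A library at 8 hr, when 5.48% of all genes were called. The core median ran from 0.39 to 0.71 at 4 hr, from 0.44 to 0.75 at 8 hr and from -0.13 to 0.22 between 4 and 8 hr, and the regulatory median from 0.49 to 0.68, from 0.48 to 0.61 and from -0.06 to 0.12.

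In WT, deviations of same-numbered libraries from their group means correlated between -0.10 and 0.08 across times, and in S513A between 0.09 and 0.42. With 2 libraries per group and many genes shifted together between libraries, these values cannot tell whether the numbers pair the libraries. With the replicate number as a block, 30 members were higher at 4 hr and 32 at 8 hr, against 3369 and 2809 of 11885 genes. *Psmc3* lost its call at both times in that setting.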
